A study of Mus musculus with 22 samples.

Results

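The extracellular matrix genes examined here were 42 genes for collagens, laminins and other glycoproteins, crosslinking enzymes, matrix proteases, protease inhibitors and the growth factor Tgfb1. They were listed by gene symbol, through the Ensembl identifiers of GRCm38. The list was drawn up with earlier results of these data known. All 42 were among the 15448 genes of the deposited count table, and all 42 passed the filter on low counts that left 14785 genes for testing.

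RNA carrying poly(A) was sequenced from the livers of male wild-type CD2F1 mice in 3 groups, 1 library per mouse. CT (n = 6) were sham-injected, vehicle-treated mice with no tumour. C26 (n = 8) carried C26 cells, a mouse colon carcinoma line that is transplanted to model cancer cachexia, and the series calls them untreated. C26-TDCA (n = 8) carried the same cells and received taurodeoxycholic acid (TDCA), a taurine-conjugated bile acid, by daily intraperitoneal injection at 10 mg/kg. The labels do not say whether this leaves out vehicle injections as well, nor how old the mice were. The tumour is a single transplanted line, and the labels give no histology of the liver.

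The extracellular matrix is the protein meshwork around cells. Fibrillar collagens give it tensile strength, type IV collagen and laminins form the sheets called basement membranes, and lysyl oxidases crosslink the fibres. Metalloproteases cut matrix proteins, and tissue inhibitors of metalloproteases (TIMPs) block them. In liver, the stellate cells of the sinusoid wall are the best known source of fibrillar collagen, endothelial cells make much of the sinusoidal matrix, and hepatocytes secrete plasma fibronectin.

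Libraries held 16511100 to 25260393 counts in CT, 17512071 to 28134658 in C26 and 20521443 to 28264450 in C26-TDCA. Without further scaling, 3 counts came to between 0.106 and 0.182 per 1e6 counts depending on the library. Levels below are in CPM (counts per 1e6, scaled by TMM). Changes are log2 fold changes with their standard error (SE) from edgeR. A gene was called where its Benjamini-Hochberg adjusted p over all 14785 genes was under 0.05. The hepatocyte markers Alb, Apoa1, Ttr, Tat, Cps1 and Hnf4a were detected in every group and summed to 53090 to 62546 CPM in CT and 22190 to 32298 CPM in C26. Most of that fall was Alb (mean 42189 to 15181 CPM). In C26 Ttr and Cps1 were also called lower, Tat and Hnf4a higher, and Apoa1 was not called. The labels do not say more on how mice were housed or processed together, and p-values measure the spread between these libraries.

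Matrix transcripts were mostly higher in tumour-bearing livers. Of the 42 members, 30 rose in C26 against CT, 4 fell and 8 were not called. Over all genes tested the percentages called higher and lower were 28.9% and 29.2%. The counts of classes, markers and wider lists given below for C26 against CT stand beside these same shares. The median log2 fold change was 0.92 over the members and -0.0031 over all genes tested. A rise of more than 1 log2 unit was called for 20 members, against 10.6% of all genes. In 21 members every C26 library lay above every CT library and in 3 (Col5a3, Col27a1 and Timp3) every C26 library lay below, against 14.2% and 15.3% of all genes, while 18 members had overlapping groups. The 4 that fell were the minor fibrillar collagens Col5a3 and Col27a1, the laminin chain Lama4 and the inhibitor Timp3.

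**Figure D1:**
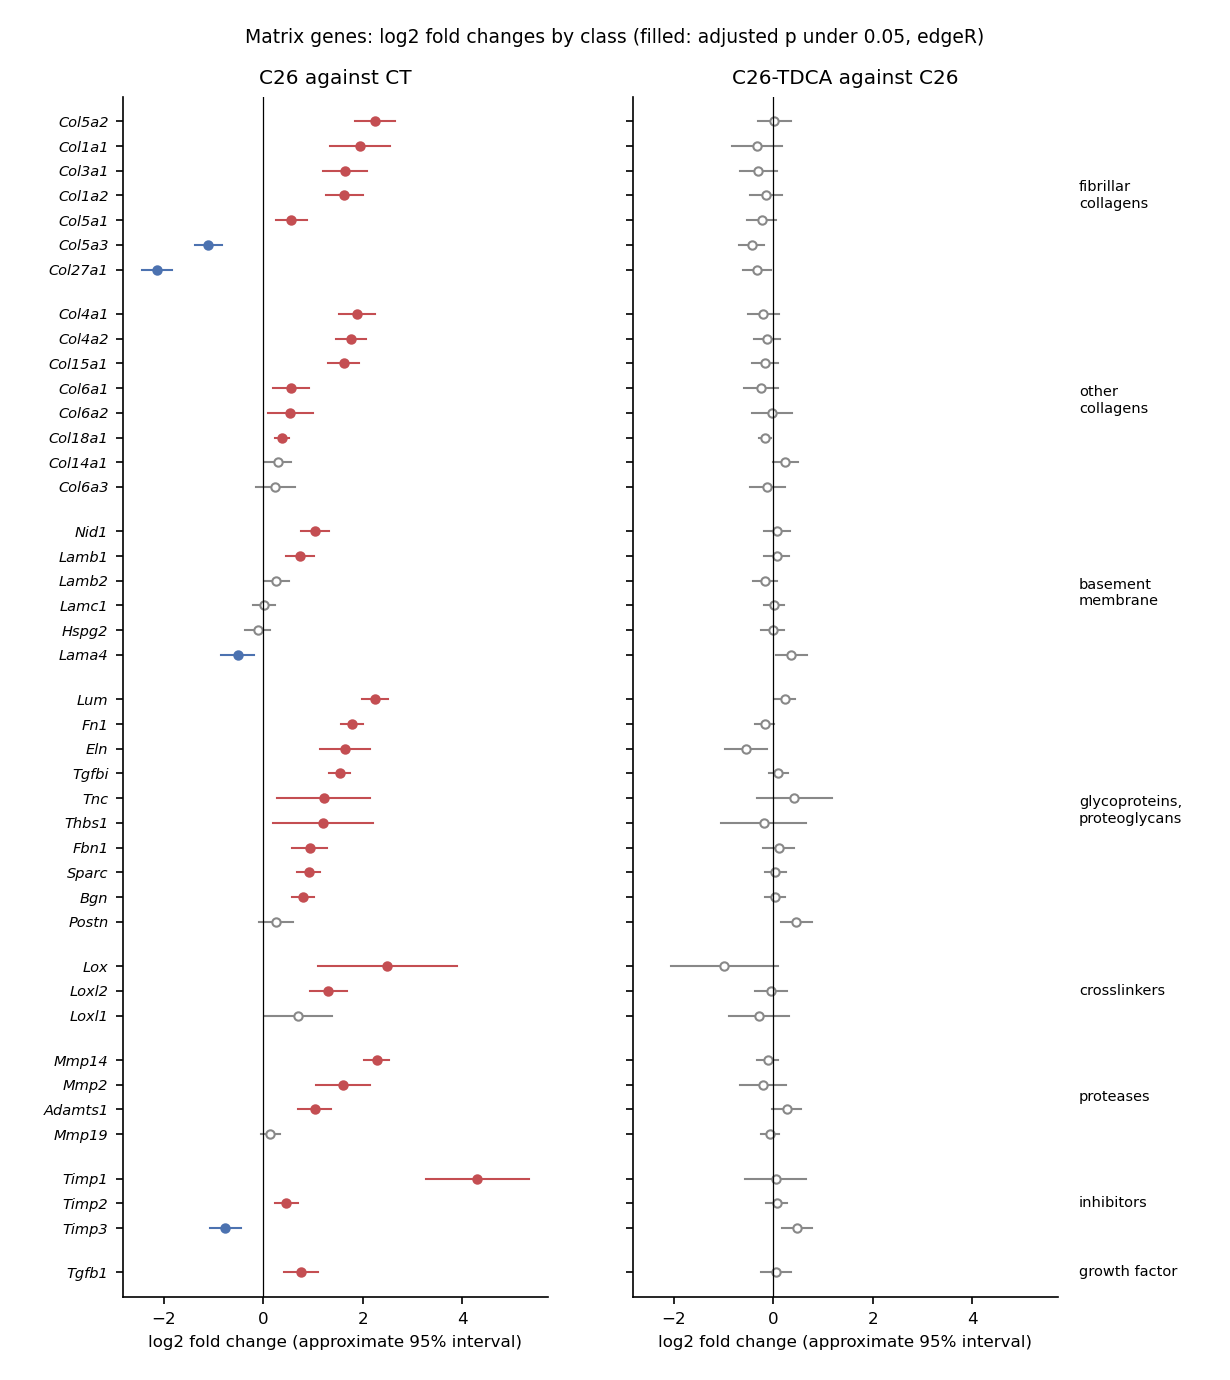
Log2 fold change of each of the 42 members, grouped by role, in C26 against CT (left) and C26-TDCA against C26 (right); points are edgeR estimates, bars approximate 95% intervals, filled points adjusted p under 0.05. On the left 30 points are called above 0 and 4 below it, and on the right none of the 42 is called.

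Markers of other liver cells moved in the same comparison, where 28.9% of all genes were called higher and 29.2% lower. Of 10 hepatic stellate cell markers, 6 rose and 2 fell (Reln and Ecm1) in C26, and their summed level was 276 to 351 CPM in CT and 349 to 551 CPM in C26. That rise was mostly Dcn, a matrix proteoglycan that is also in a wider matrix list (mean 103 CPM in CT, 245 CPM in C26). The other 9 stellate markers summed to 187 to 246 CPM in CT and 170 to 254 CPM in C26. Of 8 sinusoidal endothelial markers 7 rose (208 to 252 CPM against 281 to 515 CPM), and of 8 Kupffer cell markers all 8 rose (220 to 257 CPM against 354 to 536 CPM). Of 7 measured monocyte and neutrophil markers 6 rose, from a summed 2.41 to 6.35 CPM in CT to 19.2 to 49.6 CPM in C26. Of the 5 cholangiocyte markers measured, Spp1 and Sox9 rose and Krt19, Krt7 and Epcam were not called. None of the 4 tested markers of portal fibroblasts and smooth muscle was called, and their sum overlapped (2.64 to 14.7 CPM in CT, 2.04 to 19.7 CPM in C26). No measured marker was at 0 in every library of a group. The part of these markers in the matrix results was not tested, and in whole liver more cells of a type and more RNA per cell cannot be told apart.

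Fibrillar collagens went in both directions. Of 7, 5 rose and 2 fell in C26. Col5a2, a chain of type V collagen, which helps start fibrils, rose most. It measured 2.35, 2.9 and 4.29 CPM (lowest, median, highest) in CT, 8.99, 15.4 and 19.9 CPM in C26 and 11.1, 14.3 and 20.2 CPM in C26-TDCA. The CT libraries lay below all tumour-bearing libraries, and the C26 against CT change was 2.24 (SE 0.20, adjusted p = 8.12e-10). Col1a1, the major chain of type I collagen, had 1.67, 2.26 and 3.76 CPM in CT, 6.07, 10.2 and 14.1 CPM in C26 and 3.55, 7.21 and 16.7 CPM in C26-TDCA. Its partner chain Col1a2 had 6.51, 8.57 and 10.5 CPM in CT, 16.7, 26.1 and 34.8 CPM in C26 and 18.7, 21.1 and 37.0 CPM in C26-TDCA. Both chains were separated between CT and C26, with changes of 1.95 (SE 0.29, adjusted p = 3.88e-06) and 1.63 (SE 0.18, adjusted p = 2.98e-08). Col3a1, the type III collagen of reticular fibres, rose by 1.64 (SE 0.21) from 18 ± 2.62 (SD, n = 6) to 56.0 ± 18.4 CPM (SD, n = 8). Col5a1, the chain that pairs with Col5a2, rose by only 0.56 (SE 0.15, adjusted p = 0.0030), and this call was lost once a trend with transcript length and GC content was removed (0.27).

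The remaining fibrillar collagens lay at the other end. Col27a1, a fibrillar collagen best known from cartilage, spans bases 63214004 to 63334991 of chromosome 4 (GRCm38). It measured 103, 108 and 132 CPM in CT, 16.4, 26.4 and 33.4 CPM in C26 and 15.5, 19.3 and 28.8 CPM in C26-TDCA. The lowest CT library was above every tumour-bearing library, and the C26 against CT change was -2.13 (SE 0.15, adjusted p = 8.29e-12), a 4.38-fold lower level. Col5a3, the third chain of the type V family, had 70.1, 78.0 and 88.4 CPM in CT, 28.9, 35.4 and 54.5 CPM in C26 and 19.3, 26.6 and 37.7 CPM in C26-TDCA. These groups did not overlap between CT and C26 either, and its change was -1.10 (SE 0.13, adjusted p = 9.95e-08). The chains Col5a2 and Col5a3 of the same collagen type were thus called in opposite directions.

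**Figure D2:**
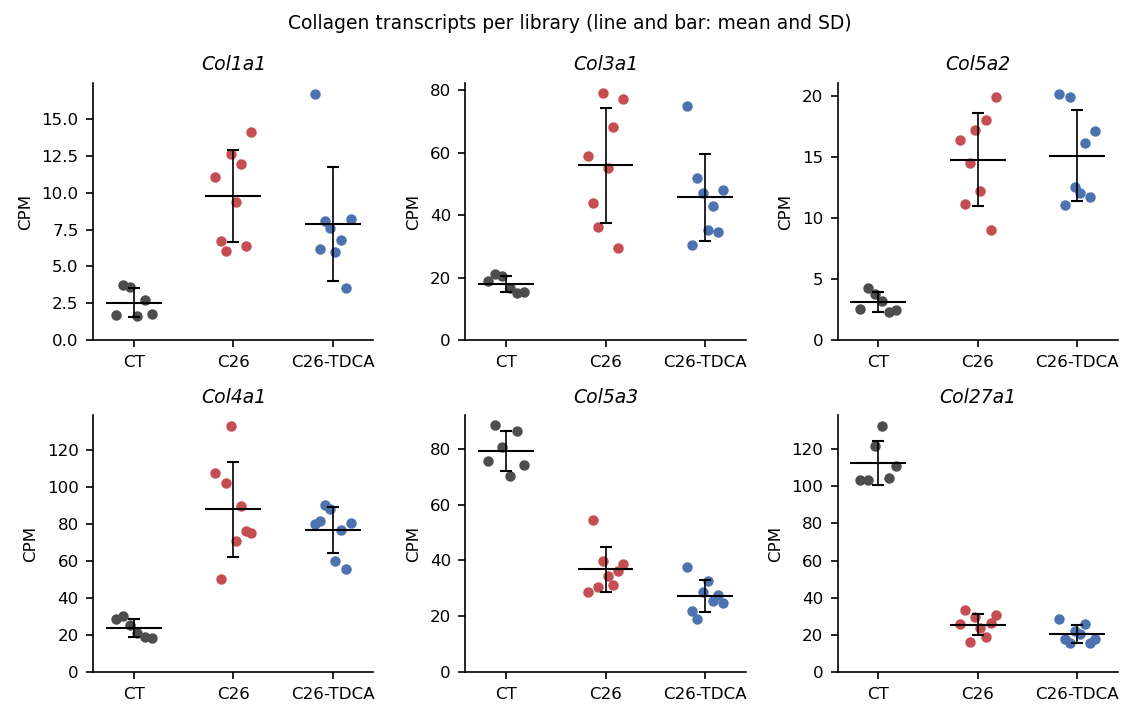
CPM of 6 collagen genes in each library of CT (n = 6), C26 (n = 8) and C26-TDCA (n = 8); each point is a mouse, lines and bars are mean and SD, and every axis starts at 0. Col1a1, Col3a1, Col5a2 and Col4a1 are higher in every C26 library than in any CT library, while Col5a3 and Col27a1 are lower in all of them.

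Type IV collagen, the network collagen of basement membranes, rose through both of its common chains. Col4a1 and Col4a2 lie head to head on chromosome 8 (GRCm38), Col4a1 at 11198423 to 11312826 on the minus strand and Col4a2 at 11312805 to 11449287 on the plus strand, so that their annotated first exons share 22 bases. The RefSeq window around the Col4a2 start (GRCm38.p6, chr8:11312555-11312854, plus strand, 250 bases before to 50 after) is shown because the members it serves moved together. The capitals mark the 22 bases that are transcribed from both strands.
Col4a2: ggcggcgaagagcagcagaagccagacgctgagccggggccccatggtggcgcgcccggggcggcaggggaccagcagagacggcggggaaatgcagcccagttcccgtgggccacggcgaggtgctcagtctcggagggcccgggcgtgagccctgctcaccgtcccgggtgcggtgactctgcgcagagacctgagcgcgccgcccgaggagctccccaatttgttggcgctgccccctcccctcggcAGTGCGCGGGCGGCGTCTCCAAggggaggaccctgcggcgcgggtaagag
Col4a1 measured 18.5, 23.4 and 30.2 CPM in CT, 50.2, 82.8 and 133 CPM in C26 and 55.5, 80.3 and 90.2 CPM in C26-TDCA. Col4a2 measured 13.4, 16.7 and 20.7 CPM in CT, 37.8, 53.5 and 80.5 CPM in C26 and 40.9, 53.4 and 61.8 CPM in C26-TDCA. For both, the CT libraries lay below all tumour-bearing libraries. The C26 against CT changes were 1.88 (SE 0.18, adjusted p = 2.06e-09) for Col4a1 and 1.76 (SE 0.15, adjusted p = 2.99e-10) for Col4a2.

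Of the 8 network, beaded and other collagens, 6 rose in C26 and 2 were not called, and the median log2 fold change was 0.55. Col15a1 and Col18a1 encode the multiplexins, collagens of basement membranes and their borders. Col15a1 rose by 1.61 (SE 0.15) from 10.6 ± 1.53 CPM (SD, n = 6) to 32.7 ± 5.83 CPM (SD, n = 8). Col18a1, the precursor of endostatin and a known hepatocyte product, was by far the most abundant collagen, with 912, 990 and 1126 CPM in CT, 1188, 1319 and 1381 CPM in C26 and 1068, 1185 and 1280 CPM in C26-TDCA. The CT and C26 libraries did not overlap, and the change was 0.37 (SE 0.06, adjusted p = 2.58e-05). It was 0.06 and not called once the length and GC trend was removed. The beaded-filament chains Col6a1 (0.55, SE 0.18) and Col6a2 (0.54, SE 0.22, adjusted p = 0.0355) had small rises that were not called after the same step (0.31 and 0.30), and their groups overlapped. The Col6a2 call was also lost without C26 replicate 4, 5, 6 or 8 or CT replicate 2, 6, 7 or 8 (adjusted p 0.0501 to 0.106). Col6a3, the third chain of type VI collagen, had 0.24 (SE 0.19, adjusted p = 0.284), and the fibril-associated Col14a1 had 0.29 (SE 0.13, adjusted p = 0.0571). In a wider list of 10 tested collagens that are not members, 5 rose, 2 fell and 3 were not called. Among those reaching 1 CPM, Col8a1, a short-chain collagen of vessel walls, rose by 2.73 (SE 0.27) and Col25a1, a transmembrane collagen, by 2.25 (SE 0.34).

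Basement membrane components other than collagen split. Of 6, 2 rose, 1 fell and 3 were not called, and the median was 0.14. Nid1, nidogen, which links laminin to type IV collagen, measured 10.4, 12.1 and 16.4 CPM in CT, 19.8, 27.0 and 31.6 CPM in C26 and 18.2, 28.7 and 32.2 CPM in C26-TDCA. All tumour-bearing libraries were above all CT libraries, and the C26 change was 1.04 (SE 0.14, adjusted p = 7.36e-07). Among laminins, Lamb1 had 3.50, 6.16 and 6.78 CPM in CT, 7.47, 9.07 and 11.4 CPM in C26 and 8.04, 9.95 and 11.3 CPM in C26-TDCA, again with no overlap. Its change was 0.74 (SE 0.14, adjusted p = 5.09e-05). The alternative beta chain Lamb2 had 3.98, 5.35 and 6.38 CPM in CT, 5.02, 6.02 and 8.42 CPM in C26 and 4.76, 5.63 and 6.28 CPM in C26-TDCA, overlapping ranges with a change of 0.26 (SE 0.12, adjusted p = 0.0689). Lamb2 was called higher by limma with quality weights (adjusted p = 0.0308) and by edgeR with upper-quartile scaling (adjusted p = 0.0266). EdgeR also called it without C26 replicate 2 or 5 or CT replicate 2 (adjusted p 0.0304 to 0.047). Over the alternatives that kept all libraries, the Lamb2 change ran from -0.075 to 0.335, so its sign also depended on the processing. Lama4, the alpha chain of endothelial laminins, had 3.62, 4.93 and 5.61 CPM in CT, 1.85, 3.42 and 5.30 CPM in C26 and 3.57, 4.16 and 5.22 CPM in C26-TDCA. The ranges overlapped although the C26 decrease was called (-0.51, SE 0.16, adjusted p = 0.00897). The gamma chain Lamc1 had 0.01 (SE 0.11, adjusted p = 0.922), and perlecan, Hspg2, had -0.12 (SE 0.12, adjusted p = 0.425). Once the length and GC trend was removed both were called lower (-0.19 and -0.46). That step turned the sign of Lamc1, and for Hspg2 it changed the call and moved the estimate from -0.12 to -0.46.

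Of the 10 glycoproteins, elastic fibre genes and small proteoglycans, 9 rose and 1 was not called, with a median of 1.20. Fn1, fibronectin, was the most abundant member. It measured 1506, 1834 and 2013 CPM in CT, 5423, 6346 and 7144 CPM in C26 and 3676, 5778 and 6527 CPM in C26-TDCA, with all tumour-bearing libraries above CT and a C26 change of 1.79 (SE 0.10, adjusted p = 4.71e-13). Fn1 alone was 48.9% to 55.9% of the summed CPM of the 42 members in CT libraries and 68.5% to 74.9% in C26 libraries. The 40 members other than Fn1 and Col18a1 summed to a median of 685 CPM in CT and 1070 CPM in C26.

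Lum and Bgn encode lumican and biglycan, small leucine-rich proteoglycans that bind collagen fibrils. Lum had the largest change of its class, with 5.96, 7.08 and 10.9 CPM in CT, 25.9, 36.4 and 41.6 CPM in C26 and 36.6, 43.4 and 51.2 CPM in C26-TDCA. The groups did not overlap between CT and C26, and the change was 2.25 (SE 0.12, adjusted p = 1.65e-13). Bgn had the smallest called change of the class at 0.80 (SE 0.11, adjusted p = 7.85e-07), with 55.1, 69.2 and 83.0 CPM in CT, 96.5, 115 and 166 CPM in C26 and 101, 127 and 136 CPM in C26-TDCA, also without overlap between CT and C26. Sparc, a collagen-binding matricellular protein, rose by 0.91 (SE 0.11), and Tgfbi, a secreted integrin-binding protein, by 1.54 (SE 0.10) from 25.0 ± 3.75 CPM (SD, n = 6) to 72.3 ± 11.4 CPM (SD, n = 8). The elastic fibre genes Fbn1, fibrillin, and Eln, elastin, rose by 0.93 (SE 0.17) and 1.64 (SE 0.24).

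The matricellular genes Tnc and Thbs1 were scarce. Tnc had 33 counts over the 6 CT libraries and 102 over the 8 C26 libraries, and Thbs1 had 61 and 195. Their changes of 1.21 (SE 0.45, adjusted p = 0.0243) and 1.20 (SE 0.49, adjusted p = 0.0386) were called, but the groups overlapped. Without C26 replicate 4, which held 72 of the Thbs1 counts, the Thbs1 change was 0.80 (adjusted p = 0.14), and its call was also lost without C26 replicate 8 or without CT replicate 1, 5, 6, 7 or 8 (adjusted p 0.0563 to 0.098), with only CT and C26 fitted (1.23, adjusted p = 0.0583), with the length and GC trend removed (adjusted p = 0.0563) and with a replicate block (1.02, adjusted p = 0.105). The Tnc call was lost without CT replicate 5 (adjusted p = 0.0564) or 7 (adjusted p = 0.0505). With a replicate block and the length and GC trend removed, neither Tnc (0.85, adjusted p = 0.0659) nor Thbs1 (0.91, adjusted p = 0.134) was called. Postn, periostin, had 4.53, 4.70 and 5.86 CPM in CT, 3.88, 6.19 and 8.21 CPM in C26 and 5.26, 8.03 and 11.7 CPM in C26-TDCA, and was not called in C26 against CT (0.25, SE 0.17, adjusted p = 0.205). Of 31 further glycoprotein and proteoglycan genes tested, 13 rose, 4 fell and 14 were not called in C26. Spp1, osteopontin, rose by 4.45 (SE 0.31) and the large proteoglycan Vcan, versican, by 3.66 (SE 0.47). Lama3, a laminin chain of epithelia, fell by 2.42 (SE 0.26) and Fmod, fibromodulin, by 1.54 (SE 0.45).

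Lysyl oxidases were low in all groups, and 2 of 3 rose. Lox measured 0, 0.0167 and 0.384 CPM in CT, 0.327, 0.541 and 1.08 CPM in C26 and 0.039, 0.316 and 0.744 CPM in C26-TDCA. It had 15 counts over the CT libraries, 3 of which had none, 116 over C26 and 60 over C26-TDCA, and the ranges of CT and C26 overlapped. Its change of 2.49 (SE 0.68, adjusted p = 0.00289) therefore rests on few reads. Loxl2 had 0.895, 1.73 and 2.38 CPM in CT, 3.35, 4.46 and 4.83 CPM in C26 and 3.02, 3.97 and 5.54 CPM in C26-TDCA. All of its tumour-bearing libraries lay above CT, with a C26 change of 1.30 (SE 0.18, adjusted p = 1.14e-06). Loxl1 was not called (0.70, SE 0.33, adjusted p = 0.068). By edgeR it was called higher with upper-quartile scaling (adjusted p = 0.0471). The same held without C26 replicate 2, 3 or 7 or CT replicate 2 (adjusted p 0.0251 to 0.041). Of 15 further genes for collagen processing and crosslinking, all 15 rose in C26. Loxl4, another lysyl oxidase, rose by 2.60 (SE 0.39) and the transglutaminase Tgm2 by 2.10 (SE 0.10), while the smallest rises were those of P4ha1, a collagen prolyl hydroxylase chain, at 0.40 (SE 0.12) and Plod1, a lysyl hydroxylase, at 0.48 (SE 0.07).

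Among proteases, 3 of 4 rose. Mmp14, the membrane-anchored metalloprotease that activates pro-Mmp2, measured 16.8, 18.2 and 22.3 CPM in CT, 64.0, 89.1 and 119 CPM in C26 and 68.1, 81.2 and 102 CPM in C26-TDCA. All tumour-bearing libraries were above CT, and the C26 change was 2.28 (SE 0.12, adjusted p = 7.93e-14), a 4.85-fold higher level. Its substrate Mmp2, gelatinase A, rose by 1.61 (SE 0.26, adjusted p = 1.15e-05) from 2.00 ± 0.977 CPM (SD, n = 6) to 6.13 ± 2.2 CPM (SD, n = 8). Adamts1, a secreted protease that cuts proteoglycans, had 4.51, 5.91 and 8.44 CPM in CT, 8.96, 12.7 and 18 CPM in C26 and 10.9, 15.2 and 20 CPM in C26-TDCA. Its groups did not overlap between CT and C26, and the change was 1.04 (SE 0.16, adjusted p = 5.44e-06). Mmp19 was not called (0.14, SE 0.09, adjusted p = 0.205). Its annotated exons share 789 bases with those of Tmem198b, whose median was 3.84 CPM in CT against 51.5 CPM for Mmp19, and the labels do not say how such reads were assigned. Of 22 further matrix proteases tested, 15 rose, 2 fell and 5 were not called. Adamts4 and Adamts15, which cut proteoglycans, rose by 5.59 (SE 0.40) and 3.91 (SE 0.23). Adamts7 fell by 2.12 (SE 0.19) and the membrane-type metalloprotease Mmp15 by 1.55 (SE 0.15).

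The TIMPs changed in opposite directions, 2 higher and 1 lower. Timp1, the soluble inhibitor, had the largest fold change of the 42 members. It lies on chromosome X at 20870166 to 20874735 (GRCm38, plus strand). For that reason the RefSeq window around its start (GRCm38.p6, chrX:20869916-20870215, plus strand) is shown. The capitals mark TGAGTAA, a variant of the AP-1 motif, 26 bases after the start; this variant was searched after the sequence was seen.
Timp1: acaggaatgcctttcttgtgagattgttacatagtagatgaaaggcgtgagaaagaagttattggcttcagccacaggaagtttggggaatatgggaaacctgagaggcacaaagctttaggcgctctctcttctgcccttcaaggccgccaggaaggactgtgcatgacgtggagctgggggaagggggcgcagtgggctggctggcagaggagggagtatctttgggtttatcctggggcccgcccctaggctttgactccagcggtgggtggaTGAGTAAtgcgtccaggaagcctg
Promoter windows of this kind, 250 bases before to 50 after a start, were found for 28 of the 42 members (32 windows). On either strand TGAGTAA was in 2 of these windows (Timp1 and Lamb2), 6.25%, against 2.68% of 32851 windows of all genes. The Timp1 match was known before this search, so the 2 shares cannot be read as an enrichment. The AP-1 motif TGANTCA was in 1 (Col6a1), 3.12% against 7.81%, and the STAT motif TTCNNNGAA in 1 (Lamb2), 3.12% against 8.3%. A match is a run of letters and not a measured site.

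Timp1 measured 0, 0.0238 and 0.249 CPM in CT, 0.478, 1.41 and 2.29 CPM in C26 and 0.624, 1.54 and 1.69 CPM in C26-TDCA. It had 9 counts over the 6 CT libraries, 3 of which had none, against 251 over the 8 C26 libraries and 266 over the 8 C26-TDCA libraries. No tumour-bearing library overlapped CT, and the C26 against CT change was 4.30 (SE 0.50, adjusted p = 7.27e-08), with the size of the fold resting on those 9 counts. Timp2, which also takes part in the activation of pro-Mmp2, rose by 0.47 (SE 0.11, adjusted p = 0.00118) from 12.1 ± 1.08 CPM (SD, n = 6) to 16.7 ± 3.68 CPM (SD, n = 8). Timp3, the inhibitor that stays bound to matrix, had 9.85, 11.5 and 13.1 CPM in CT, 3.85, 6.78 and 9.59 CPM in C26 and 7.48, 9.09 and 11.7 CPM in C26-TDCA. Every C26 library was below every CT library, and the change was -0.76 (SE 0.15, adjusted p = 0.000142). Timp3 shares 1733 exon bases with Syn3, a gene on the opposite strand, and Syn3 had a median of 0.893 CPM in CT and 0.657 CPM in C26. Among 5 further genes of inhibitor families, not all of which encode protease inhibitors, 2 rose and 3 fell. A2m, a plasma protease trap, was at 0 to 10.8 CPM in CT libraries and 544 to 13867 CPM in C26 libraries. Reck, a membrane inhibitor of metalloproteases, fell by 1.38 (SE 0.16) and Serpine2, a protease nexin, by 1.12 (SE 0.26). Serpinf1, a serpin by family and not a protease inhibitor, fell by 0.77 (SE 0.08) and was chosen after its values were seen.

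**Figure D3:**
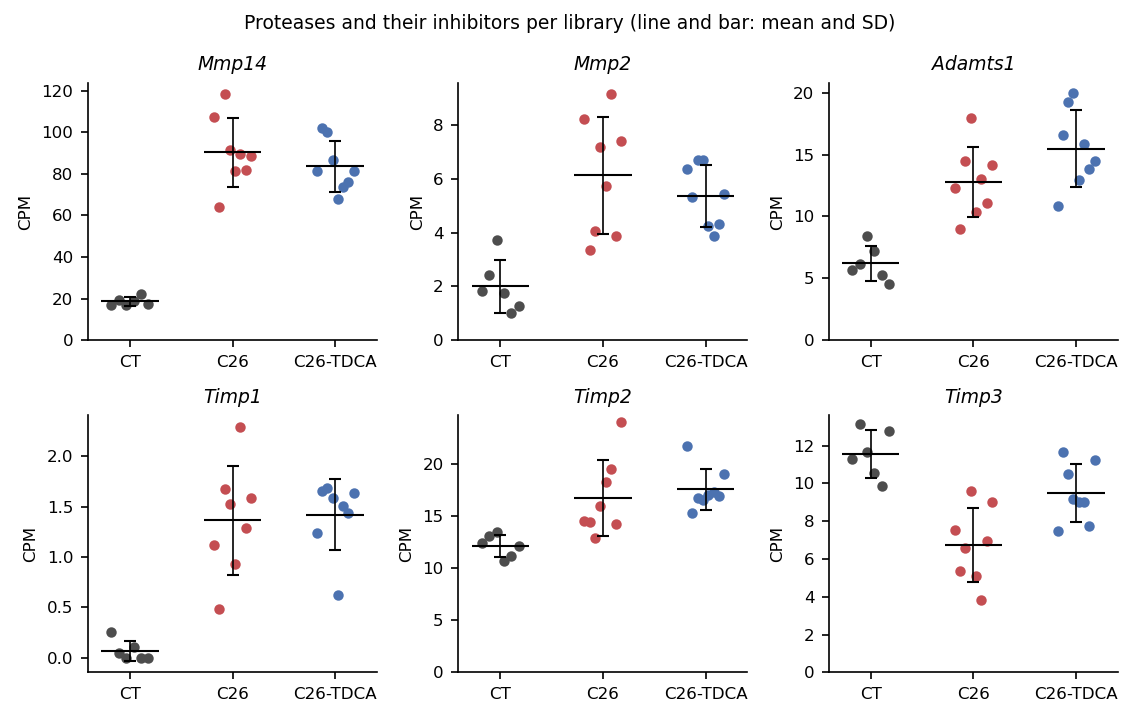
CPM of proteases and inhibitors in each library of CT (n = 6), C26 (n = 8) and C26-TDCA (n = 8); points are mice, lines and bars mean and SD, and every axis includes 0. Mmp14 and Timp1 are higher in every tumour-bearing library than in any CT library, whereas the C26 libraries for Timp3 all lie below CT and the C26-TDCA libraries reach into the CT range.

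Tgfb1, the growth factor best known for inducing matrix genes in stellate cells, measured 4.15, 5.01 and 5.52 CPM in CT, 5.61, 7.76 and 12.5 CPM in C26 and 6.94, 8.33 and 11.3 CPM in C26-TDCA. Its groups did not overlap between CT and C26, and the change was 0.76 (SE 0.16, adjusted p = 0.000336). Of 21 further genes of the pathway tested, 8 rose, 6 fell and 7 were not called. Over all genes 28.9% were called higher and 29.2% lower, so these counts are not read as a response of the pathway. The latent binding proteins Ltbp1 and Ltbp3 rose by 1.02 (SE 0.25) and 0.91 (SE 0.17). Ltbp4 of the same family fell by 1.03 (SE 0.13), as did the matricellular gene Ccn1 by 1.56 (SE 0.26). Over all 6 wider lists, 58 of 104 tested genes were called higher and 17 lower, leaving 29, and their median was 0.54.

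Levels of different genes were compared as CPM per kilobase of the longest annotated transcript, averaged over the libraries of a group. Fn1 was first in CT (219 ± 21.2, SD, n = 6) and in C26 (755 ± 66.4, SD, n = 8), and Col18a1 was next in both (180 ± 14.6 and 233 ± 12.7). The small proteoglycan Bgn (26 and 45.3) and Sparc (20.9 and 39.3) came next in both groups, and in each group these neighbours differed by less than the sum of their SDs. Order then changed. Col27a1 went from rank 5 in CT (14.8 ± 1.55) to rank 18 in C26 (3.38 ± 0.769), and Col5a3 from rank 7 (12.9 ± 1.17) to rank 14 (6.02 ± 1.33), so that in CT these were the leading fibrillar collagens per length. In C26 Col3a1 had the highest mean of them, moving from rank 13 (3.23 ± 0.472) to rank 10 (10.1 ± 3.31). There Col3a1 and Col5a3 differed by less than the sum of their SDs. Mmp14 moved from rank 9 to rank 5 and Timp1 from rank 40 (0.075) to rank 28 (1.54), next to Timp3 at rank 29 (1.43). These 2 inhibitors did not differ beyond their spread in C26, whereas in CT Timp3 was at 2.45.

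**Figure D4:**
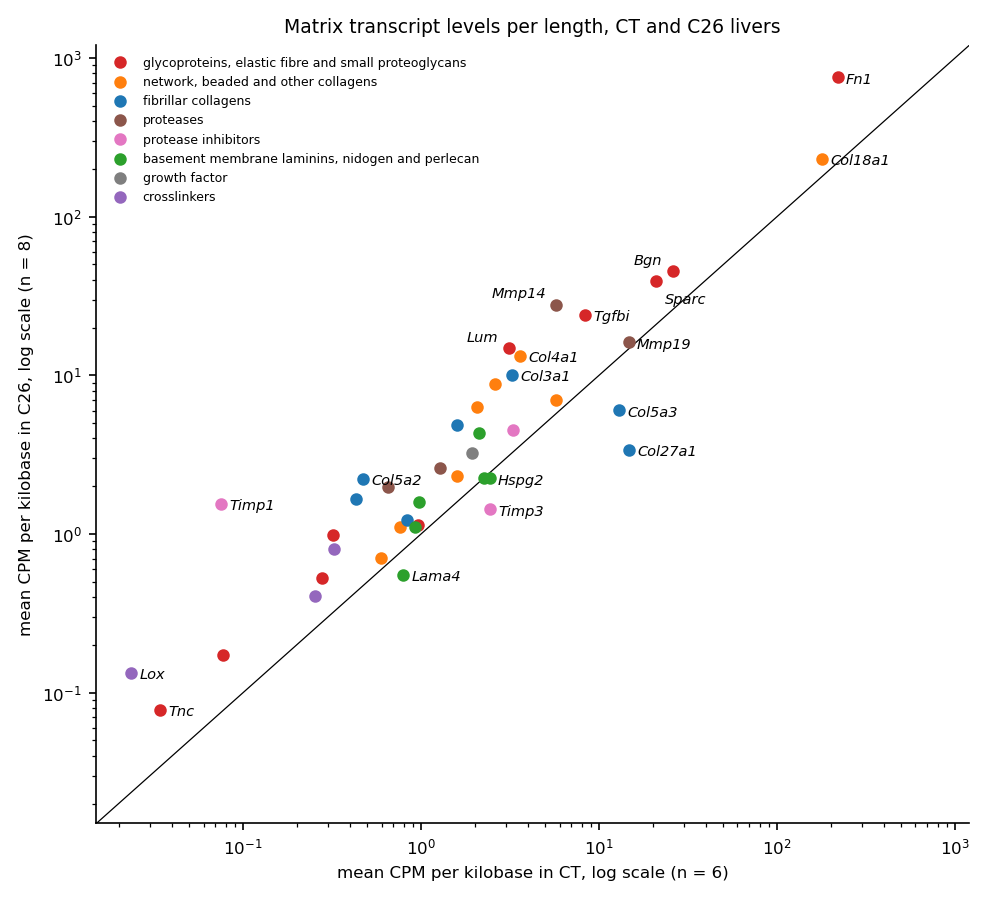
Mean CPM per kilobase of the 42 members in CT (x axis, n = 6) and C26 (y axis, n = 8), both on log scales, coloured by class; the line marks equal levels. Most points lie above the line, and Col27a1, Col5a3, Timp3 and Lama4 lie clearly below it.

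Ratios of read counts of 2 members within a library do not depend on how libraries are scaled, and 4 were tested in 2 comparisons by exact permutation tests, two-sided, with Benjamini-Hochberg adjustment over the 8 tests. The mean log2 Timp1 to Timp3 ratio was -7.74 (range -9.27 to -5.37) in CT and -2.35 (range -3.41 to -0.74) in C26. The difference was 5.39 (exact p = 0.000333, the smallest that this design allows, adjusted p = 0.00266). Every C26 library was above CT for Timp1 and below CT for Timp3, so the levels above already set this outcome. It is not separate support. A count of 0.5 was added to each gene, which sets the CT ratios where Timp1 had no counts. The type I collagen ratio of Col1a1 to Col1a2 differed by 0.35 (exact p = 0.0636, adjusted p = 0.102), and the type IV ratio of Col4a1 to Col4a2 by 0.11 (exact p = 0.0629, adjusted p = 0.102), neither past the threshold. The laminin ratio of Lamb1 to Lamb2 was 0.09 ± 0.44 (SD, n = 6) in CT and 0.58 ± 0.28 (SD, n = 8) in C26, a difference of 0.49 that did not pass the adjusted threshold (exact p = 0.0167, adjusted p = 0.0666). It passed without CT replicate 1 (adjusted p = 0.0124) or without C26 replicate 8 (adjusted p = 0.0117). The type IV ratio passed without C26 replicate 2 (0.14, adjusted p = 0.0396). In C26-TDCA against C26 no ratio passed. The differences were -0.24 for type I collagen (exact p = 0.138), -0.07 for type IV (exact p = 0.304), -0.41 for the TIMPs (exact p = 0.232) and 0.23 for the laminins (exact p = 0.0514), with adjusted p of 0.102 to 0.304. The laminin difference passed without C26 replicate 1 (0.30, adjusted p = 0.00808).

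**Figure D5:**
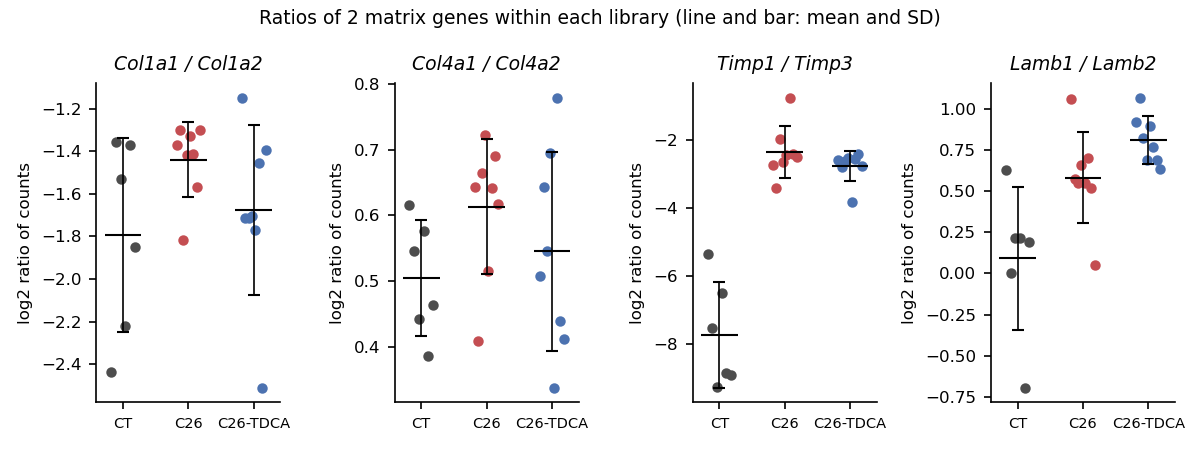
Log2 ratio of counts of 2 members within each library for Col1a1/Col1a2, Col4a1/Col4a2, Lamb1/Lamb2 and Timp1/Timp3 in CT (n = 6), C26 (n = 8) and C26-TDCA (n = 8); points are mice, lines and bars mean and SD. Only the Timp1 to Timp3 ratio separates CT from both tumour-bearing groups without overlap.

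The comparison of C26-TDCA with C26 sets tumour-bearing mice injected with TDCA against those the series calls untreated. The labels do not say whether C26 mice received vehicle injections, so TDCA and daily injection cannot be told apart. None of the 42 members was called by edgeR, against 1.97% of all genes (1.73% higher and 0.237% lower). An unadjusted p under 0.05 was found for 8 members and for 2335 of all 14785 genes tested. The median log2 fold change was -0.05, against -0.01 over all genes, and the ranges of the groups overlapped for all 42, where 0.0947% of all genes had every C26-TDCA library above C26 and 0.0541% every one below. Removing the length and GC trend also left 0 members called, and moved the calls over all genes from 256 higher and 35 lower to 9 and 8. The 2 lowest adjusted p-values belonged to genes that had fallen in C26. Col5a3 was at -0.43 (95% interval -0.68 to -0.18, adjusted p = 0.0717), with a median of 35.4 CPM in C26 and 26.6 CPM in C26-TDCA, further from the CT median of 78.0 CPM. Timp3 was at 0.48 (95% interval 0.18 to 0.77, adjusted p = 0.0835), with medians of 6.78 and 9.09 CPM and 11.5 CPM in CT. DESeq2 called both (Timp3 0.48, adjusted p = 0.0322; Col5a3 -0.44, adjusted p = 0.0237), where it called 4.54% of all genes with an adjusted p, and limma with sample quality weights called Col5a3 alone (-0.43, adjusted p = 0.0434), where it called 3.17%. By edgeR, Col5a3 was called without C26 replicate 1 (-0.47, adjusted p = 0.0294) or C26-TDCA replicate 1 (-0.51, adjusted p = 0.0312), and Timp3 without C26 replicate 4 (0.57, adjusted p = 0.0402). Calls over all genes moved as well. They were 527 higher and 67 lower without C26 replicate 1, 203 and 40 without C26-TDCA replicate 1, and 197 and 31 without C26 replicate 4.

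Other members with an unadjusted p under 0.05 were Postn (0.47, adjusted p = 0.11, and 0.0374 without C26 replicate 1), Col18a1 (-0.16), Eln (-0.55), Lama4 (0.36), Col27a1 (-0.32) and Lum (0.23). Leaving out C26 replicate 1 also raised the calls over all genes, as given above. A missed threshold does not show that TDCA left the members alike. The approximate 95% interval was -0.36 to 0.013 for Fn1, -0.32 to 0.099 for Mmp14, -0.51 to 0.11 for Col4a1 and -0.82 to 0.19 for Col1a1. For the scarce Lox it was -2.06 to 0.096. C26-TDCA replicate 1 was the highest of its group in 21 of the 42 members, while it was highest in 12.5% of all genes. C26 replicate 2 was the lowest of its group in 18 members, against 18.1% of all genes. Of 104 wider matrix genes, 1 rose and none fell by edgeR, against 1.97% of all genes called. An unadjusted p under 0.05 was found for 12 of them, where 2335 of all 14785 genes had one. The gene that rose was the integrin chain Itgav (0.38, SE 0.10, adjusted p = 0.0411), named after its values were seen. The summed stellate markers were 438 to 583 CPM in C26-TDCA and 349 to 551 CPM in C26 (201 to 281 and 170 to 254 CPM without Dcn), and none of those 10 genes was called.

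Against CT, C26-TDCA livers shared the CT libraries with the comparison above, so that its counts are not a separate test. Here 28 members were higher, 2 lower and 12 not called, where 28.7% and 28.2% of all genes were (57.0% in either direction), and the median change was 0.98. In 21 members every C26-TDCA library lay above CT and in 2 (Col5a3 and Col27a1) below, against 15.4% and 16.2% of all genes. Set side by side with C26 against CT, Col27a1 had -2.46 (SE 0.15) and -2.13, Col5a3 had -1.53 (SE 0.13) and -1.10, Mmp14 had 2.17 (SE 0.12) and 2.28, and Timp1 had 4.35 (SE 0.50) and 4.30. Timp3 had -0.28 (SE 0.15, adjusted p = 0.113) against -0.76, and was called lower in C26-TDCA under 5 of 9 other analyses, with adjusted p of 0.00911 to 0.0495 (limma with quality weights, only the groups compared, the replicate block, the trend removed, and both together). Lama4 had -0.15 (SE 0.16, adjusted p = 0.44) against -0.51. Postn was called at 0.72 (SE 0.17, adjusted p = 0.000678) and Col14a1 at 0.53 (SE 0.13, adjusted p = 0.0011), neither of which was called in C26 by the same analysis. In C26 against CT, Col14a1 was however called with DESeq2, upper-quartile scaling, only those groups fitted or the replicate block (adjusted p 0.0235 to 0.0477) and without any of 7 single libraries, and Postn with the trend removed (0.41, adjusted p = 0.0398). Lox (1.51, adjusted p = 0.0754), Thbs1 (1, adjusted p = 0.085), Col5a1 (0.33, adjusted p = 0.0703) and Col6a1 (0.31, adjusted p = 0.143) were called in C26 but not in C26-TDCA. In C26-TDCA against CT, DESeq2, limma with quality weights and the replicate block called Lox (adjusted p 0.0317 to 0.0468), limma, upper-quartile scaling and the block called Col5a1 (adjusted p 0.0292 to 0.0497), and limma called Thbs1 (adjusted p = 0.0146). None of Timp3, Lama4, Postn, Col14a1, Lox, Thbs1, Col5a1 and Col6a1 passed the test of C26-TDCA against C26 by edgeR, so they are not shown to differ between the tumour-bearing groups. Col18a1 was called at 0.21 (SE 0.06, adjusted p = 0.00746), but had 0.0004 with the length and GC trend removed, and the Col6a2 call (0.52, adjusted p = 0.0461) was lost without any of 11 libraries, among them C26-TDCA replicate 1 (0.37, adjusted p = 0.129).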

How the data were processed

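The authors deposited raw read counts per Ensembl gene, 1 column per mouse, and columns were assigned to mice and groups by their labels. Per the submitters' processing notes reads were handled with HISAT2 2.2.1, Trimmomatic 0.40, featureCounts 2.0.3, FastQC, bcl2fastq 2.17 and DESeq2 1.42.0 on GRCm38 (roles and order not given). The labels do not state the annotation release, the strand setting or the rule for ambiguous reads, so overlapping genes are uncertain.

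Of 15448 genes, 15443 matched GENCODE M21. Counts were tested with edgeR 4.0.16 in R 4.3.3 (filterByExpr with a minimum count of 10, TMM, 1 mean per group over all 22 libraries, quasi-likelihood F test, Benjamini-Hochberg over 14785 genes). Each SE was derived from the log2 fold change and its F statistic, and intervals at 95% are approximate. The script was tested on simulated data. Ratios used exact permutation tests with 0.5 added to each count. Floors of 3 counts cover counting error only. Alternatives were DESeq2 1.42.0, limma 3.58.1 with quality weights, other scalings and filters, a replicate block, a loess trend (span 0.3) on length and GC content, and leaving out each library. Members had a median longest transcript of 5456 bases and 53.2% GC, against 3151 bases and 49.3% over all genes.

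Libraries of a group differed by more than sampling noise (lowest chi-square divided by its degrees of freedom 11.0). Same-numbered libraries of C26 and C26-TDCA correlated at -0.204 to 0.337 in their deviations. Differently numbered libraries were not compared, so this check cannot show whether the numbers pair mice. The members, lists and alternatives were chosen with earlier results of these data known. Every member is named. Per-library values are given for the called members with the highest and lowest change of each class and for those in the ratios, and also for Col5a3, Postn and Fn1, chosen after their values were seen. Of each wider list, the text names up to 2 called genes with the highest and 2 with the lowest change among those reaching 1 CPM. One gene of the wider lists that this rule names is not reported here.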

Additional observations from a re-analysis of the deposited data

Results flagged for a closer look

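Each group of each member was screened for a library whose gap to its nearest neighbour was large for the range of its group. Of 126 groups 12 (9.5%) met the limit, where chance gives about 1 in 20. C26-TDCA replicate 1 stood above its group in 4 collagen genes: Col1a1 at 16.69 CPM (next 8.23), Col1a2 at 36.97 CPM (next 26.5), Col6a1 at 11.9 CPM (next 8.76) and Col6a2 at 8.799 CPM (next 6.13). C26-TDCA replicate 7 stood below its group in Fn1 at 3676 CPM (next 5248) and Hspg2 at 19.84 CPM (next 29.8), and C26-TDCA replicate 5 in Timp1 at 0.6239 CPM (next 1.24). In C26, replicate 2 was high in Col5a3 at 54.53 CPM (next 39.9), replicate 1 in Col14a1 at 63.24 CPM (next 46.0), replicate 4 in Thbs1 at 2.687 CPM (next 1.32) and replicate 6 in Tgfbi at 97.76 CPM (next 76.7). In CT, replicate 2 was high in Thbs1 at 1.334 CPM (next 0.49).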

How the results depend on the processing

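In C26 against CT the 30 higher and 4 lower members became 24 to 33 higher and 4 to 6 lower over the scalings, filters, tools and trend fits run. They became 27 to 33 higher and 4 lower (31 to 37 called) when each library was left out in turn. The member median ran from 0.77 to 0.99. Calls over all genes moved too, from 4266 higher and 4321 lower. They were 4889 and 3708 with upper-quartile scaling, where 33 members were higher. With the block and the trend removed they were 3825 and 4652, where 24 members were higher. In C26-TDCA against C26 the 0 called members became 2 (1 higher, 1 lower) with DESeq2 and 1 (1 lower) with limma quality weights, and 0 to 2 (0 to 1 higher, 0 to 1 lower) without single libraries. In C26-TDCA against CT the 2 lower members became 5 (with Timp3, Hspg2 and Lamc1) with the length and GC trend removed, and 5 with the replicate block and the trend removed. Removing the trend moved the calls over all genes from 4250 higher and 4175 lower to 3804 and 5054. Called members ran from 29 to 31 (27 to 29 higher, 2 lower) without single libraries. Lamc1 turned to -0.19 in C26 against CT and -0.24 (-0.235) in C26-TDCA against CT with the trend removed, and to -0.22 and -0.26 with the block as well. Without single libraries the log2 ratio differences in C26 against CT were 0.23 to 0.44 (Col1a1/Col1a2), 0.084 to 0.14 (Col4a1/Col4a2), 0.33 to 0.60 (Lamb1/Lamb2) and 5.08 to 5.87 (Timp1/Timp3). In C26-TDCA against C26 they were -0.31 to -0.12, -0.10 to -0.038, 0.15 to 0.30 and -0.56 to -0.18. Over all genes the 291 calls in C26-TDCA against C26 (256 higher, 35 lower) became 45 (41 and 4) with only those groups fitted, 17 (9 and 8) with the trend removed and 538 (434 and 104) with DESeq2. Correlations of same-numbered libraries over 0.1 were 5 of 8 between C26 and C26-TDCA, 0 of 6 between CT and C26 and 1 of 6 between CT and C26-TDCA. Pairing by replicate number was not tested against differently numbered libraries. The fit with a replicate block called 34, 0 and 32 members in C26 against CT, C26-TDCA against C26 and C26-TDCA against CT, where the fit without it called 34, 0 and 30. With the block Thbs1 lost and Col14a1 gained a call in C26 against CT, and in C26-TDCA against CT Col6a2 lost and Col5a1, Lox and Timp3 gained one. The causes of these differences were not tested. Counts limit Timp1, Lox, Tnc and Thbs1, whose CT libraries held 9, 15, 33 and 61 counts in all.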
